A study of Mus musculus with 4 samples.

Results

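The aryl hydrocarbon receptor gene Ahr, its partner genes Arnt and Arnt2, the repressor gene Ahrr and the non-P450 target genes Tiparp and Nqo1 were followed in cultured mouse tooth germs. The genes were taken by symbol: every probe set annotated to exactly 1 of these 6 symbols was used, which gave 8 of the 12488 probe sets on the array, for 6 of the 8252 genes that have such a probe set. Arnt and Nqo1 have 2 probe sets each. Mandibular molar germs were dissected from NMRI mouse embryos at day 14 and grown for 24 h on filters, either with 1 µM TCDD (2,3,7,8-tetrachlorodibenzo-p-dioxin, supplied in DMSO) or with the DMSO solvent at 0.65%. All explants had DMEM with 10% fetal calf serum, and the label of DMSO replicate 2 alone adds ascorbic acid. There were 2 TCDD arrays and 2 DMSO arrays (murine U74v2A), each from RNA pooled from about 60 explants of 3 experiments, so the number of arrays limits the precision. Total RNA going into labelling was 11 µg for TCDD replicate 1, 8 µg for TCDD replicate 2, 11 µg for DMSO replicate 1 and 7 µg for DMSO replicate 2.

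The receptor is a ligand-activated transcription factor of the bHLH-PAS family that waits in the cytoplasm with heat shock protein chaperones. Dioxins such as TCDD bind it, it moves to the nucleus, pairs with ARNT and binds xenobiotic response elements with the core GCGTG near its target genes. Among the targets are cytochrome P450 genes, the quinone reductase gene Nqo1, and the genes of its own feedback inhibitors: the AhR repressor Ahrr, which competes for ARNT, and Tiparp, a mono-ADP-ribosyltransferase that modifies the receptor. Dioxin exposure is known to disturb tooth development in rodents, and the comparison of TCDD with DMSO addresses which transcripts of the germ differ after exposure.

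Signals are in units of the MAS5 algorithm, which brings the trimmed mean of each array to a target of 100, and ± after a mean signal is the SD of 2 arrays. Differences are TCDD minus DMSO in log2(signal + 16), an offset that understates changes of dim probe sets. They were tested with limma on the 5783 probe sets whose signal averaged 50 or more, and p-values were adjusted over all of them by the Benjamini-Hochberg method (threshold 0.05). A calendar fault in the deposited table had replaced 37.1% of its cells, all with signals between 1.1 and 31.8, by day serial numbers that were turned back into signals; 13 of the 32 cells of the 8 probe sets were among them. The labels give 3 combined experiments per pool but do not say whether pools shared experiments or litters, so p-values measure only the spread between these pools. In whole tissue, fewer cells of a type and less RNA per cell cannot be told apart.

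Markers of the labelled tissue had signals over a wide range, and no detection calls were used. For the dental epithelium 12 of 13 listed markers were on the array; their summed signals were 4422.3 and 4887.5 on the TCDD arrays and 3274.7 and 4398.3 on the DMSO arrays, yet Krt5, Krt14 and Krt15 had signals of at most 10.8 on every array. For the dental mesenchyme all 13 were on the array, with Vim at 17.2 to 30 and Pax9 averaging under 50, summing to 6604.4 and 6638.3 in TCDD against 5614.7 and 6036.9 in DMSO. Of 14 listed macrophage symbols 13 were on the array, and the missing Emr1 is an older name of the measured Adgre1. Their signals summed to 1041.7 and 1011.7 in TCDD against 883.6 and 760.8 in DMSO. These 3 sums were higher on both TCDD arrays than on both DMSO arrays. So were Tiparp, Ahrr and 1 of the 2 Nqo1 probe sets, and the part of the sums in those genes' differences was not tested. A few bright genes carried the tissue sums: without the 3 brightest they overlapped, at 753.9 and 873.8 in TCDD against 735.6 and 859.2 in DMSO for the epithelium and 1860.6 and 2271.1 against 1760.0 and 2186.4 for the mesenchyme. The macrophage sum without its 3 brightest did not, at 632.7 and 566.9 in TCDD against 482.2 and 438.5 in DMSO. Single markers of the tissue went both ways, with Perp at 0.61 and Cdh1 at -0.44 in the epithelium and Col1a2 at 0.36 and Barx1 at -0.33 in the mesenchyme. The 8 macrophage markers averaging 50 or more were all positive, at 0.05 to 0.59. Of these, 4 were entirely higher and 0 entirely lower in TCDD, against 15.3% and 14.6% of all 5783. Over all 13 macrophage markers on the array 10 were positive. Summed signals of endothelial, red blood cell, skeletal muscle, cartilage and nerve markers overlapped between the groups. Of the marker genes on the array, 0 were listed at 0 on any array.

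The start regions of the 3 genes with a probe set entirely higher in TCDD are shown because the receptor acts through DNA near the genes it controls. RefSeq start regions of 300 bases (250 before to 50 after the start, build GRCm38.p6) were found for 5 of the 6 genes, all but Ahr. Each is printed in the direction of the gene, with every GCGTG, on either strand, in capitals (CACGC is the same core on the other strand). Tiparp lies at chr3:65528197-65528496 on the plus strand, Ahrr at chr13:74292282-74292581 and Nqo1 at chr8:107403156-107403455 on the minus strand.
Tiparp: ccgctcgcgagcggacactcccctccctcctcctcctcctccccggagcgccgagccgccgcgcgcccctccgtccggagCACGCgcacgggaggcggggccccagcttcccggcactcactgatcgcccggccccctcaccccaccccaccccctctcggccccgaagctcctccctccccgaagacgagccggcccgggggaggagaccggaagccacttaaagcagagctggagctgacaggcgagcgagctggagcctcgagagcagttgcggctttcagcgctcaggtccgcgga
Ahrr: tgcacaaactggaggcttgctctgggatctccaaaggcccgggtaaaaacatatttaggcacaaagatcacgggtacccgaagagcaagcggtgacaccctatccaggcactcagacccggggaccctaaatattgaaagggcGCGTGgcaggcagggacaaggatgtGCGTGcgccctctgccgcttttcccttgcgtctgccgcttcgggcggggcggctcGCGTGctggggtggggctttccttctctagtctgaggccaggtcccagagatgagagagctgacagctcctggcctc
Nqo1: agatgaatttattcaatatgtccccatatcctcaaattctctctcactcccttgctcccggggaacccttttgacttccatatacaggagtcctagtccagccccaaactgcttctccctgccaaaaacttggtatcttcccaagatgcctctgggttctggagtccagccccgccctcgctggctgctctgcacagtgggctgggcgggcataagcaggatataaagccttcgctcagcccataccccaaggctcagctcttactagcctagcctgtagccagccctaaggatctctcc
The Ahrr region holds the core 3 times, with first bases at -107, -82 and -27 from the start, all on the strand of the gene. The last of them also matches the longer form TNGCGTG. The Tiparp region holds it once, at -170 on the opposite strand, and the Nqo1 region 0 times. Of the others, Arnt has 1 match at -29 and Arnt2 has 0. Among 32851 start regions of this length 32.4% hold at least 1 core, 3.91% hold 3 or more and 5.07% hold the longer form, so a single match is common. The regions of Ahrr and Tiparp are also richer in G and C, at 60.3% and 73.7%, than the median region at 52.7%. The antioxidant response element core TGACNNNGC, the kind of site bound by NRF2, is in 12.4% of all regions; the Nqo1, Ahrr and Tiparp windows hold 0. These matches describe the letters in the windows and say nothing of binding in the tooth germ.

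Tiparp, Ahrr and the brighter of the 2 Nqo1 probe sets had higher signals on both TCDD arrays than on either DMSO array. The other Nqo1 probe set overlapped between the groups, and Ahr had slightly lower signals in TCDD. Of the 8 probe sets, 3 were entirely higher in TCDD, 1 was entirely lower and 4 overlapped; over all 12422 non-control probe sets 10.8% were entirely higher and 20.8% entirely lower. Of the 3 probe sets bright enough for the test (Ahr, Tiparp and 1 of Nqo1), 0 passed the limma adjusted p, against 4 of 5783 (0.0692%) overall; without the filter 0 of the 8 passed, against 2 of 12422 (0.0161%). An unadjusted limma p under 0.05 was found for 150 of the 5783, fewer than a share of 0.05 would give. Tiparp was among these, and so was Nqo1, which entered the tested set only through its TCDD signals.

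**Figure D1:**
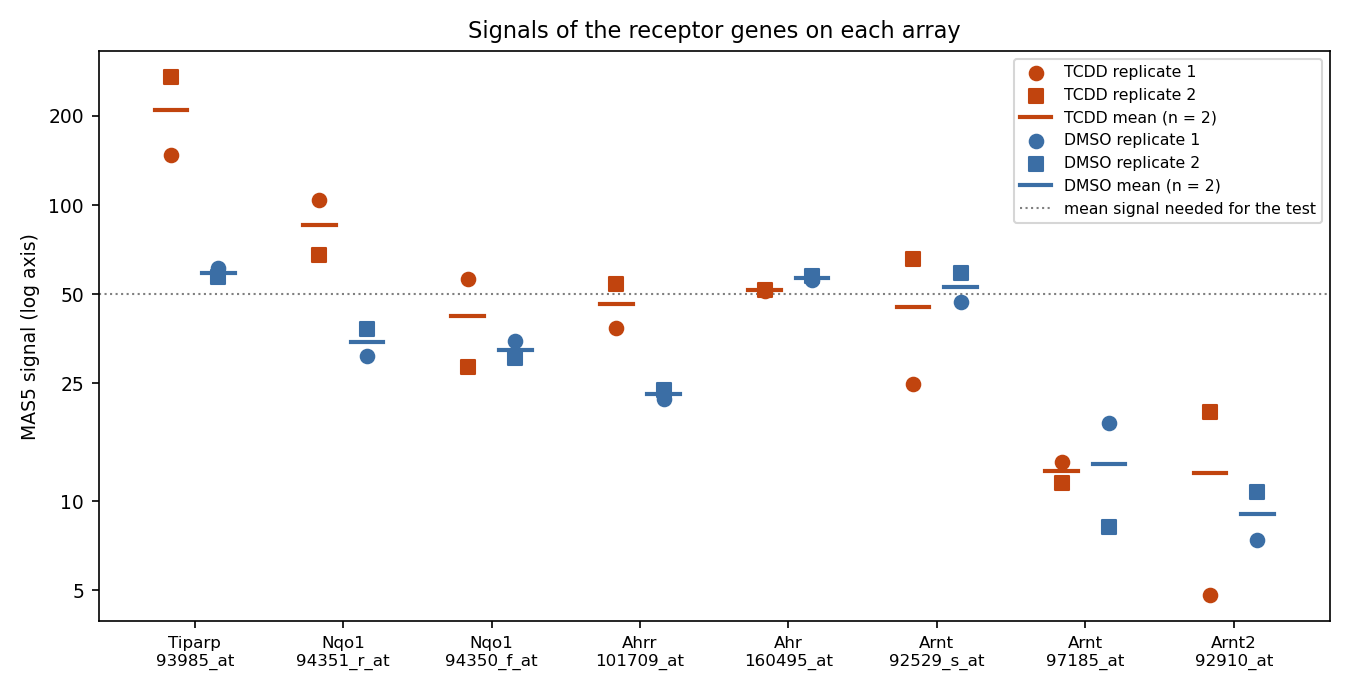
MAS5 signal (log axis) of each of the 8 probe sets on each array, TCDD left of DMSO, with group means as bars (n = 2). Both TCDD points lie above both DMSO points for Tiparp, Nqo1 (94351_r_at) and Ahrr, and only Tiparp reached 147.8 or more.

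Tiparp, the TCDD-inducible poly(ADP-ribose) polymerase that dampens receptor signalling, had the largest difference of the 6 genes. Its probe set 93985_at had signals of 147.8 and 271.3 on the TCDD arrays, against 61.1 and 57.1 on the DMSO arrays. The DMSO arrays were close together, while the TCDD arrays lay 0.81 apart on the log2 scale, replicate 2 being the higher. The means were 210 ± 87.3 in TCDD and 59.1 ± 2.83 in DMSO (SD, n = 2 each), a ratio of 3.55. The log2 difference was 1.53 ± 0.27 (SE), with a 95% interval of 0.94 to 2.12, an unadjusted limma p of 1.4e-04 and a limma adjusted p of 0.167. All 4 pairs of a TCDD and a DMSO array showed it, by 1.09 to 1.97.

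Tiparp stood near the top of the array all the same. Its log2 difference was the third of 5783 in rank from the top and its p the fifth smallest. With a ratio of at least 2 in signal + 16 in all 4 array pairs it belonged to a group of 3 probe sets (0.0519%), the others being the P450 targets Cyp1a1 and Cyp1b1. No cell of Tiparp was a day serial, so its values do not rest on the repair. The size of the difference depended on the arrays: it was 1.94 without TCDD replicate 1 and 1.13 without TCDD replicate 2. Without DMSO replicate 1 or 2 it was 1.57 and 1.49. Each of these fits leaves 1 array in a group, so its p-value holds no spread within that group and is not given.

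Nqo1, which encodes the NAD(P)H quinone reductase that detoxifies quinones, is a target of both the receptor and the oxidative stress factor NRF2. Its brighter probe set, 94351_r_at, had signals of 104.0 and 67.6 on the TCDD arrays, against 30.8 and 38.1 on the DMSO arrays. Both TCDD values exceeded both DMSO values, and here TCDD replicate 1 was the higher, the opposite of Tiparp. The means were 85.8 ± 25.7 in TCDD and 34.5 ± 5.16 in DMSO (SD, n = 2 each), a ratio of 2.49. The log2 difference was 0.99 ± 0.26 (SE; 95% interval 0.43 to 1.56), with an unadjusted limma p of 0.0027 and a limma adjusted p of 0.997. This probe set reached the mean of 50 only through its TCDD signals, so these values come from a set that its own difference brought it into. Without the filter it ranked 10 from the top of 12422, with a 95% interval of 0.33 to 1.65 and a limma p of 0.0087 (adjusted 0.979). The DMSO signal of 30.8 was a repaired day serial, and the difference was 1.27 with day serials set to 16.

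The other Nqo1 probe set did not show the same separation. In DMSO the 2 probe sets averaged 34.5 and 32.5, so 94351_r_at was the brighter one mainly through its TCDD signals. Both are annotated to the same GenBank record; the suffix f marks probes shared with a sequence family and r marks a set built with relaxed design rules. Probe set 94350_f_at had signals of 56.2 and 28.3 in TCDD, against 34.6 and 30.5 in DMSO, the 28.3 and 30.5 being repaired day serials. TCDD replicate 1 was the highest of the 4 arrays and TCDD replicate 2 the lowest, so the groups overlapped. Its log2 difference was 0.22, with a 95% interval of -0.52 to 0.97 in the limma fit without the signal filter (adjusted p 0.979). In both Nqo1 probe sets TCDD replicate 1 exceeded TCDD replicate 2, by 0.52 and 0.70 on the log2 scale.

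Ahrr, the repressor that resembles the receptor but does not activate transcription, was dim in both groups. Its probe set 101709_at had signals of 38.5 and 54.2 in TCDD, against 22.1 and 23.8 in DMSO. The groups did not overlap, and TCDD replicate 2 was the higher TCDD array, as for Tiparp. The means were 46.4 ± 11.1 in TCDD and 23 ± 1.2 in DMSO (SD, n = 2 each), a ratio of 2.02. The log2 difference was 0.67, between 0.45 and 0.88 over the 4 array pairs. With a mean signal of 34.7 Ahrr was below the filter; in the limma fit without the filter its 95% interval was 0.02 to 1.32 and its adjusted p 0.979 (unadjusted 0.046). Both DMSO signals were day serials, so the difference rests on the repair, and it was 0.96 with an offset of 1 and 0.34 with an offset of 64.

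**Figure D2:**
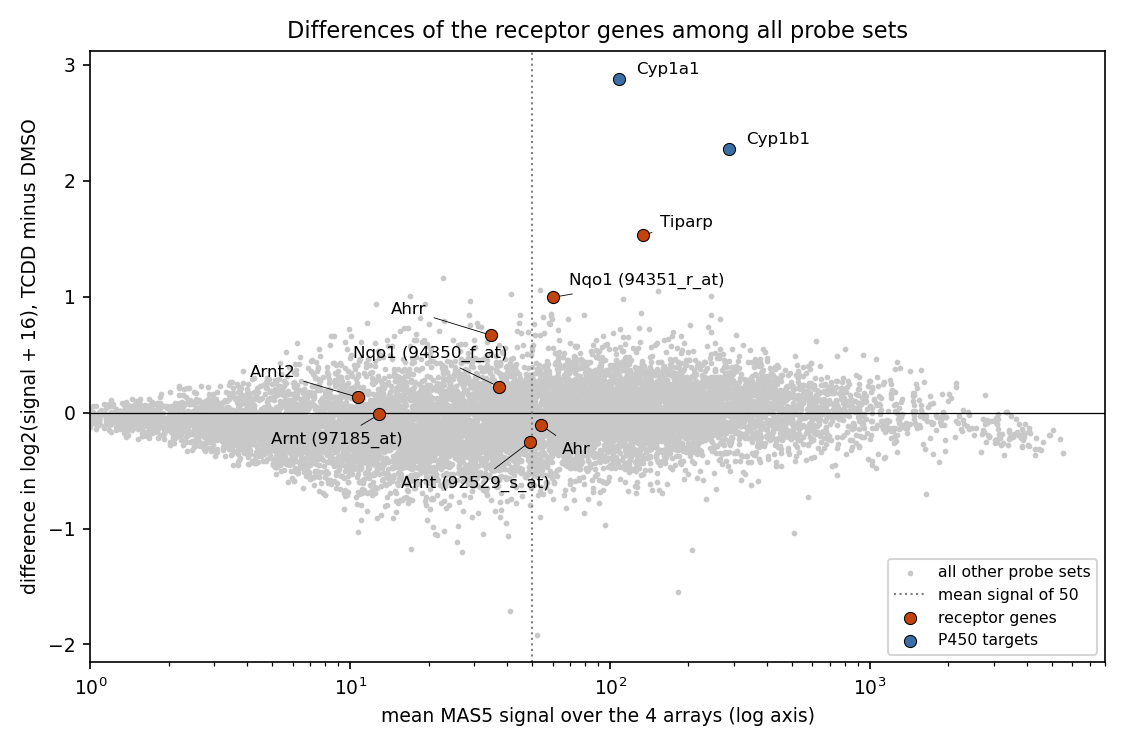
Difference in log2(signal + 16), TCDD minus DMSO, against the mean MAS5 signal over the 4 arrays (log axis, from 1 up) for all probe sets in grey, with the receptor genes and the P450 targets Cyp1a1 and Cyp1b1 marked. Tiparp at 1.53 lies above the cloud, Nqo1 (94351_r_at) at 0.99 and Ahrr at 0.67 near its upper edge, and the others inside it.

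Ahr itself, which encodes the receptor that binds TCDD, had nearly equal signals everywhere. They were 51.2 and 51.7 in TCDD, against 55.8 and 57.4 in DMSO. Both TCDD arrays lay below both DMSO arrays, by 0.08 to 0.13 on the log2 scale. The means were 51.5 ± 0.354 in TCDD and 56.6 ± 1.13 in DMSO (SD, n = 2 each). The log2 difference of -0.11 ± 0.23 (SE) had a 95% interval of -0.61 to 0.40 and a limma adjusted p of 0.997. With a mean of 54 Ahr was just inside the filter and Arnt, at 49.2, just outside it.

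Arnt, the obligate partner of the receptor on DNA and also of hypoxia-inducible factors, could not be placed in either direction. Its probe set 92529_s_at had signals of 24.9 and 65.7 in TCDD, against 47.1 and 59.0 in DMSO. The TCDD arrays held both the lowest and the highest of the 4 values, the lowest being a repaired day serial. The log2 difference was -0.25, with a 95% interval of -1.10 to 0.60 in the limma fit without the filter (adjusted p 0.979); it was 0.25 without TCDD replicate 1. The second Arnt probe set, 97185_at, had 13.6 and 11.5 in TCDD against 18.4 and 8.2 in DMSO, all repaired cells, and differed by -0.02.

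Arnt2, a close relative of Arnt that is known mainly from neural tissue, was the dimmest on its probe set. Signals of 92910_at were 4.8 and 20 in TCDD, against 7.4 and 10.7 in DMSO, all but the 20 being repaired day serials. The TCDD arrays again enclosed the DMSO arrays. The log2 difference was 0.13, with a 95% interval of -0.50 to 0.76 in the limma fit without the filter (adjusted p 0.98), and it was -0.27 without TCDD replicate 2. The intervals of both partner genes include 0 and are wide, which does not show that either gene was unaffected.

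**Figure D3:**
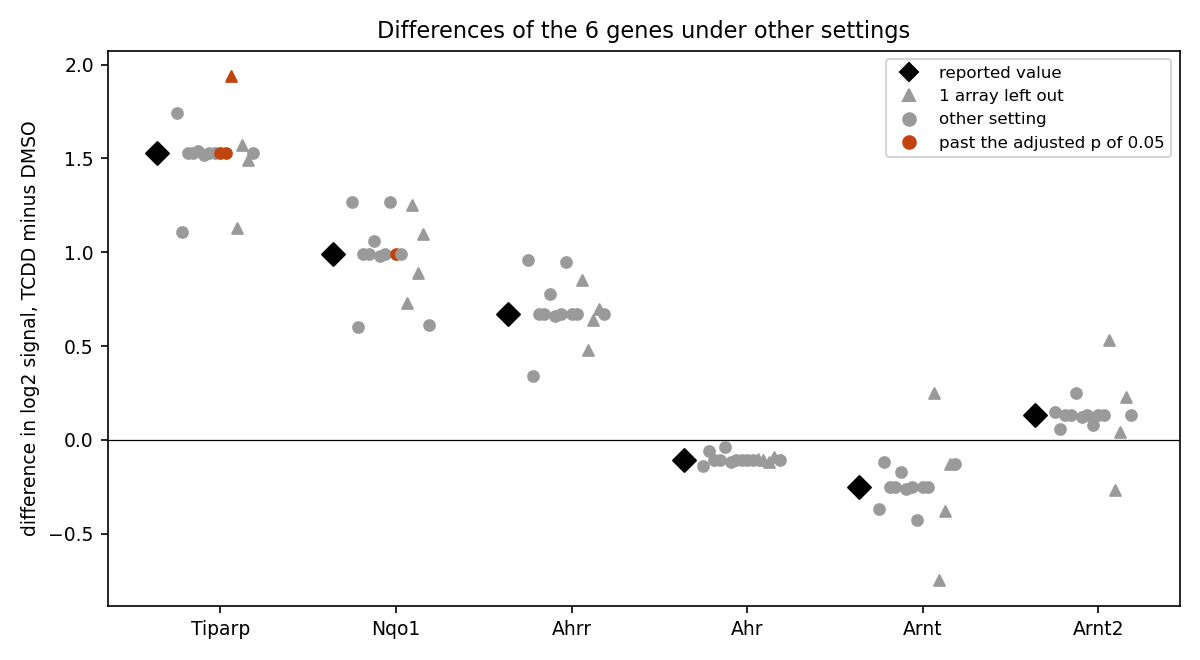
Difference in log2 signal, TCDD minus DMSO, of each of the 6 genes (brightest probe set) as reported (diamond), with 1 array left out (triangles) and under other settings (circles). Red marks an adjusted p under 0.05, which for a triangle holds no spread within the group left with 1 array. Tiparp, Nqo1 and Ahrr stayed above 0, at no less than 1.11, 0.60 and 0.34, Ahr stayed between -0.14 and -0.04, and Arnt and Arnt2 fell on both sides of 0.

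Of 4 listed P450 targets of the receptor, 2 were bright enough for the test and both had larger differences than the 6 genes. Cyp1a1 had signals of 194.8 and 210.5 in TCDD against 14.7 and 12.7 in DMSO, and Cyp1b1 had 519.9 and 455.0 against 98.6 and 77.8. Both rose past the limma test, with log2 differences of 2.88 ± 0.22 and 2.28 ± 0.21 (SE) and adjusted p-values of 3.68e-04 and 9.18e-04. Cyp1a1 reached the filter only through its TCDD signals, so its filtered values come from a set that its own difference brought it into. Both DMSO signals of Cyp1a1 were repaired day serials. In the limma fit without the filter Cyp1a1 and Cyp1b1 also passed, at an adjusted p of 0.0173 each. Averaging the probe sets of each gene left 0 limma calls, so neither gene passed under that setting. The differences of Tiparp (1.53), Nqo1 (0.99) and Ahrr (0.67) were smaller; the gaps between genes were not tested. The 2 dim P450 genes did not share the direction: Cyp1a2 had 6.2 and 6.0 in TCDD against 12.9 and 12.6 in DMSO (-0.38), and Cyp2s1 differed by -0.06. Entirely lower signals, as in Cyp1a2, were found in 20.8% of all 12422 probe sets. The median over the 4 was 1.11.

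Among 20 other non-P450 genes reported as receptor targets, the array carried 16, of which 4 were bright enough for the test, and 0 passed the limma adjusted p. Of the 4, 2 were higher and 2 lower, with a median difference of 0.02 against 0.01 over all 5783 probe sets. Over all 16 the median was -0.08 and 5 were positive. With dim probe sets included the array leaned lower: a difference of -0.06, that of Cyp2s1, ranked 6276 from the top of 12422, near the middle. Medians that include dim genes, here and below, are to be read against that. Nfe2l2, which encodes NRF2, had signals of 327.5 and 252.0 in TCDD against 230.6 and 169.0 in DMSO, which is 0.51 ± 0.22 (SE) on the log2 scale (limma adjusted p 0.997). Socs2, a suppressor of cytokine signalling, differed by 0.17. The 12 dim ones included the textbook targets Aldh3a1, with 29.6 and 29.2 in TCDD against 39.8 and 23.0 in DMSO, and Selenbp1, with 44.4 and 44.9 against 31.5 and 36.4 (both named after their values were seen).

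Since Nqo1 also answers to NRF2, the NRF2 targets and their regulator Keap1 were counted. The array carried 15 of 16 listed genes, and 12 were bright enough; 9 were higher and 3 lower in TCDD, with a median difference of 0.15, and 0 passed the limma adjusted p. In 5 of the 12 the TCDD arrays lay entirely above the DMSO arrays and in 1 entirely below, against 15.3% and 14.6% of all 5783. The transketolase gene Tkt differed by 0.42 ± 0.21, the haem oxygenase gene Hmox1 by 0.25 ± 0.22 and the glutathione transferase gene Gstp1 by -0.27 ± 0.18 (SE). The 2 probe sets of Nqo1 stood at 0.99 and 0.22. Over all 15 genes on the array the median was 0.11 and 10 were positive.

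Tiparp belongs to the PARP family, of which the array carried 6 of 14 other listed genes. The 4 bright ones (Parp1, Parp2, Parp8 and Tnks2) differed by 0.08 to 0.22, the arrays of the groups overlapped in each, and 0 passed the limma adjusted p. The 2 dim ones had negative differences. Parp6 had signals of 32 and 22.7 in TCDD against 53.5 and 41.9 in DMSO, all TCDD arrays being below all DMSO arrays (-0.56). Of all 12422 probe sets 20.8% were entirely lower, against 14.6% of the 5783 bright ones, so this is common among dim probe sets. Parp16 differed by -0.31. The median was 0.17 over the 4 and 0.12 over the 6.

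Genes that hold, help or resemble the receptor showed 0 calls as well. The array carried 5 of 8 genes of the chaperone complex and 4 were bright enough, with differences from -0.17 to 0.15; the HSP90 beta gene Hsp90ab1 was not among the probe sets with a single symbol. Of 14 coregulators 11 were present and 6 bright enough, 5 of these with positive differences. All TCDD arrays lay above all DMSO arrays in 3 and below them in 1 (Rela, an NF-kappaB subunit gene, -0.11), against 15.3% and 14.6% of all 5783. The median was 0.27 over the 6 bright genes and 0.00 over all 11, of which 6 were positive. The 3 entirely higher were Sp1, a zinc finger activator that binds GC boxes, at 0.58 ± 0.23, Nrip1, a nuclear receptor corepressor, at 0.46 ± 0.20, and Smarca4, the ATPase of a chromatin remodeller, at 0.27 ± 0.19 (SE), each with a limma adjusted p of 0.997. Of 15 other bHLH-PAS genes, the family of Ahr and Arnt, the array carried 12. Their median was -0.04, where the middle of all 12422 probe sets lay near -0.06, and 4 were positive. The 3 bright ones were Hif1a, the clock gene Arntl at 0.25 ± 0.23 (SE), and Per3, with a median of 0.18.

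**Figure D4:**
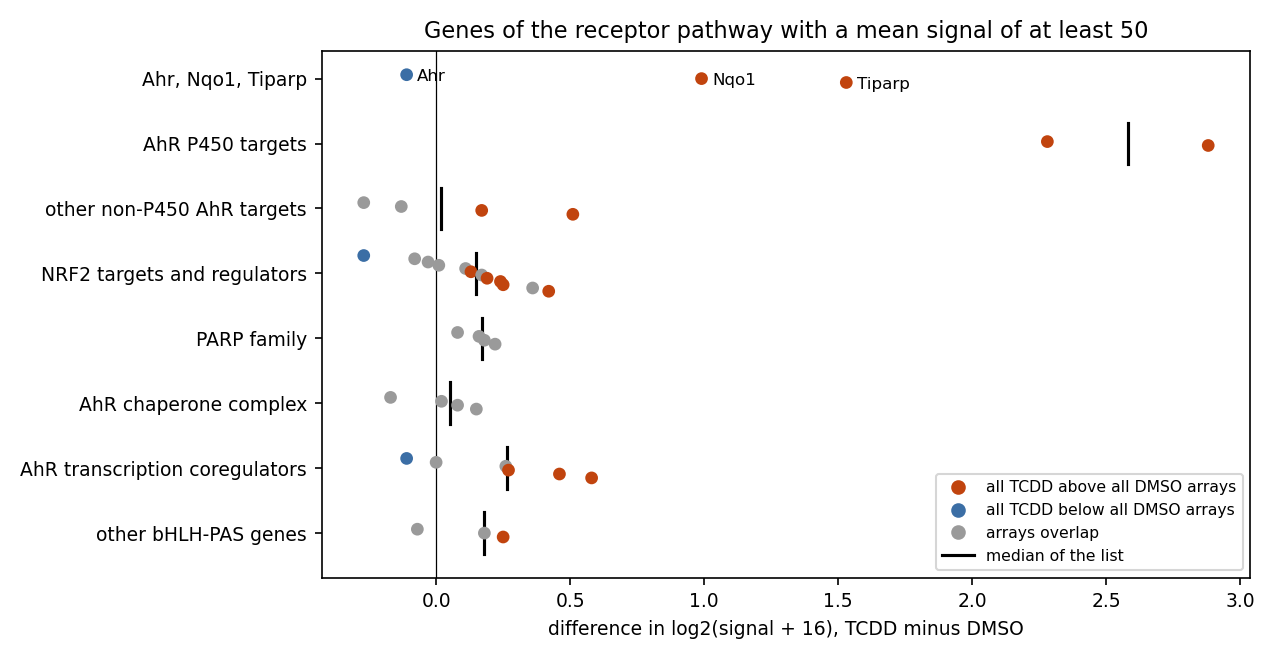
Difference in log2(signal + 16), TCDD minus DMSO, of each gene whose signal averaged 50 or more, by list, with the median of each list as a line. Red points have both TCDD arrays above both DMSO arrays and blue points below; Tiparp, Cyp1a1 and Cyp1b1 are the points past 1.

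Genes with the most similar pattern over the 4 arrays were sought by the Euclidean distance between log2 profiles centred on their own mean, among probe sets that reached the filter. The profiles were not scaled to a common spread, so a gene with a large difference has few near neighbours and a flat one many. For Tiparp the closest were the hair keratin-associated gene Krtap3-1 at a distance of 0.80, the hair keratin gene Krt81 at 0.83 and the interferon-inducible GTPase gene Iigp1 at 0.94. For Nqo1 they were Klf5, an epithelial transcription factor gene, at 0.21, followed by Ash2l and Lypla1 (97207_f_at) at 0.33 each. Klf5 had signals of 359.2 and 276.7 in TCDD, so it too was highest on TCDD replicate 1. For Ahrr they were C1qb at 0.15, a complement gene of macrophages, and Trafd1 and Wdr81 at 0.20 each. C1qb had 85.3 and 120.9 in TCDD, with TCDD replicate 2 the higher, as for Ahrr. For Ahr, whose profile was nearly flat, Fibp, Grb7 and Blzf1 lay at 0.03 each. For Arnt the closest were Tapbp at 0.05 and Mfap2 and Lypla1 (101946_at) at 0.08 each. This Lypla1 probe set differed by -0.17 and the one near Nqo1 by 0.66, so they do not share a pattern. For Arnt2 the closest were Agrn at 0.05 and Usp24 and Sel1l at 0.10 each. Krtap3-1 and Ash2l reached the filter only through their TCDD signals. With 4 arrays such likeness is a description only.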

How the data were processed

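The deposited table held 1 intensity signal per probe set and array, made by the authors with Affymetrix Microarray Suite 5.0 (MAS5) and scaled to a target of 100, per the labels. Detection calls, probe-level files and the genome build were not used here or are not given in the sources used here. Whole numbers from 38718 to 38990 were read as days counted from the spreadsheet origin and written back as day.month. The repaired signals of every array then averaged 100.05 once the top and bottom 2% were dropped. Gene names came from the platform annotation (10855 of 12488 with 1 symbol), with symbols looked up by Entrez ID in the GRCm38.p6 gene table, which changed 0.

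limma 3.58.1 in R 4.3.3 (lmFit, eBayes with trend) was run on log2(signal + 16) for the 5783 non-control probe sets with a mean of at least 50. It was also run on simulated data with independent noise, which checks the code only. The brightest probe set stood for a gene. An exact permutation test over 2 against 2 arrays cannot go below a two-sided p of 0.33 and was not run. Intervals are 95% limma intervals. Named genes were all members, up to 3 non-overlapping genes per list with the largest difference, the 3 nearest profiles of each member, Hsp90ab1, Cyp1a1 and Cyp1b1. All other names (single markers, PARP, P450 and bHLH-PAS genes outside this rule, Rela, and those so marked) were chosen after their values were seen. The members and lists were chosen with earlier results of these data known. Alternatives covered the offset, filter, scaling, variance trend, serial repair, probe set averaging, replicate number and each array.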

Additional observations from a re-analysis of the deposited data

How the results depend on the processing

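Directions of Tiparp, Nqo1, Ahrr and Ahr were kept under every alternative run. Leaving out 1 array gave 1.13 to 1.94 for Tiparp, 0.73 to 1.25 for Nqo1, 0.48 to 0.85 for Ahrr, -0.12 to -0.09 for Ahr, -0.75 to 0.25 for Arnt (0.25 without TCDD replicate 1) and -0.27 to 0.53 for Arnt2 (-0.27 without TCDD replicate 2), and 2 to 5 limma calls over all probe sets, where all arrays gave 4. Ahrr moved to 0.96 with an offset of 1, 0.34 with 64 and 0.95 with day serials set to 16. Averaging the probe sets of Nqo1 gave 0.61 and a mean below the filter. Calls by limma numbered 4 in the main fit, 2 without the filter and 0 (126 at an unadjusted p under 0.05) with probe sets of a gene averaged. The cause was not tested. With the replicate block, Tiparp (1.53, limma adjusted p 3.04e-11) and Nqo1 (0.99, limma adjusted p 0.0049) passed and the calls numbered 32; with the block and no filter, an alternative chosen after seeing the data, there were 17 and Tiparp passed (1.53, limma adjusted p 5.17e-05), Nqo1 and Ahrr not (0.12 and 0.445). The labels do not state any pairing by number. Replicate 1 minus replicate 2 correlated at 0.38 between the groups across 5783 probe sets, and the blocked fit of the filtered set took every variance from the common trend. Quantile normalization and median centring moved the median of the 5783 tested probe sets by at most 0.01. Dim members moved more under quantile normalization. Arnt2 went from 0.13 to 0.25, Ahrr from 0.67 to 0.78 and Arnt from -0.25 to -0.17. Without detection calls, nothing says which of the dim probe sets (Ahrr, Arnt, Arnt2, 94350_f_at) were above background.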

Other observations

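Among the listed genes below the filter, Esr1, the estrogen receptor alpha gene, whose protein is known to interact with the aryl hydrocarbon receptor, had lower signals in TCDD; it is named after its values were seen. Its probe set 93946_at had signals of 7.5 and 13.4 on the TCDD arrays, against 39.4 and 42.6 on the DMSO arrays. All 4 array pairs were lower, by 0.91 to 1.32 on the log2 scale, and 20.8% of all 12422 probe sets were likewise entirely lower. The difference was -1.12, with a 95% interval of -1.73 to -0.50 in the limma fit without the filter and an adjusted p of 0.979 (unadjusted 0.0032). The TCDD signals were repaired day serials.

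Ido1, which encodes the tryptophan-degrading enzyme whose products bind the receptor, had signals of 31.0 and 21.3 in TCDD against 14.6 and 8.8 in DMSO (161824_r_at, also named after its values were seen). The log2 difference was 0.60, with a 95% interval of 0.01 to 1.20 in the limma fit without the filter and an adjusted p of 0.979. All its signals but the 31.0 were repaired day serials.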
